A study of Rattus norvegicus with 24 samples.

Results

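Nuclear genes of the mitochondrial respiratory chain were followed in RNA-Seq of the nucleus accumbens (NAc), a reward region of the ventral striatum, from rat pups at postnatal day 14 (P14). They were chosen by name alone, as rows whose symbol begins Nduf followed by a, b, c, s or v and a digit, is Sdha, Sdhb, Sdhc or Sdhd, begins Uqc or Atp5, or begins Cox followed by a digit from 4 to 8, with a mean of at least 1 FPKM (fragments per kilobase of transcript, scaled to the fragments of the library) over the 24 libraries. Of 92 rows with such names among 23950 in all, 88 reached that level, and 13677 rows of the whole table did. The 88 rows carry 85 distinct symbols: 36 belong to complex I, 4 to complex II, 12 to complex III, 18 to complex IV and 18 to complex V. The members nearest above the limit were Cox7a1 at 1.52, Cox4i2 at 3.90 and Atp5s at 4.03 FPKM, and the rows left below it were Ndufa10l1 at 0.772, Cox8b at 0.559, Cox7b2 at 0.344 and Cox8c at 0.00917 FPKM.

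The respiratory chain lies in the inner mitochondrial membrane. Complex I takes electrons from NADH and complex II takes them from succinate, ubiquinone carries them to complex III, cytochrome c carries them on to complex IV, and complex IV passes them to oxygen. Complexes I, III and IV pump protons as they do so, and complex V, the ATP synthase, uses the returning protons to make ATP. Complexes I, III, IV and V are built from subunits of both the nuclear and the mitochondrial genome, while complex II is wholly nuclear. Neurons rely on this pathway for most of their ATP, and several subunits of complex IV exist as alternative isoforms that are known from muscle, lung or testis. Nuclear respiratory factor 1 (NRF1) and ETS-family factors such as GABP are known activators of many of these genes.

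The pups were Sprague Dawley rats of the F1 and F2 generations, with 4 libraries in each of 6 groups and each library in a group from a separate litter. F1 IUO pups (in utero oxycodone) were born to F0 dams gavaged with oxycodone (oxy) from before mating until weaning, at 10 mg/kg/day for 5 days and then with steps of 0.5 mg/kg/day over 10 days up to 15 mg/kg/day. F1 PNO pups (postnatal oxycodone) were born to F0 dams gavaged at 15 mg/kg/day only from birth of the litter until weaning, so that exposure came through milk, and F1 SAL pups were the saline controls. F2 SAL, F2 PNO and F2 IUO pups were born to F1 females of the matching groups, which were untreated when mated. Their sires were males naive to the experiment. The sex of the pups is not given in the sources used here, and neither is any sequencing batch.

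All libraries held striatal tissue, since none of 10 markers of striatal projection neurons was listed at 0 throughout a group and their summed level was 418 to 1365 FPKM. Dissections differed, however: the summed level of 8 thalamus markers ranged from 22.6 to 330 FPKM. That of 8 choroid plexus markers ranged from 6.06 to 12289 FPKM, and that of 6 cortex markers from 8.03 to 349 FPKM. Only the thalamus level was used as a covariate, and the part of choroid plexus or cortex was not tested. How deeply each library was sequenced is unknown, and between 4782 and 7532 rows were listed at 0. FPKM is relative to the library, and the 13 mitochondrially encoded subunits alone took 17.04% to 41.8% of the summed FPKM of a library. In bulk tissue, fewer cells of a type and less RNA per cell cannot be told apart.

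The nuclear respiratory chain genes were among the most abundant transcripts of the NAc. Their 88 means ran from 1.52 to 1245 FPKM with a median of 172, against a median of 9.06 over the 13677 rows with a mean of at least 1. Of the 88, 71 were among the 1000 rows with the highest mean, 64 had a mean above 100 FPKM and 7 a mean under 10. None was listed at 0 in any library, and together they made up 3.09% to 4.70% of the summed FPKM of a library. Small membrane subunits led the list. Cox6a1, a small regulatory subunit of complex IV, had a mean of 1245 FPKM, Cox6c of the same complex 1098 and Atp5me, subunit e of the membrane part of ATP synthase, 1007.

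Levels were spread differently in the 5 complexes. The median member of complex V stood at 363 FPKM and that of complex IV at 296, above complex I at 162, complex III at 152 and complex II at 110. In complex I the 29 supernumerary subunits, which surround the catalytic core with its flavin and iron-sulfur clusters, had a median of 166 FPKM. The 7 subunits of the core had a median of 105 FPKM and reached 171. Ndufs1, the largest catalytic subunit, was the lowest of them at 40.5 FPKM, while Ndufa3, a small membrane subunit, was highest in the complex at 511. Ndufs6 was lowest in complex I at 7.43 FPKM, followed by the Ndufv3 row ENSRNOG00000027593 at 9.48 and Ndufc1 at 20.4. Complex II kept within a narrow band, from 95.7 FPKM for the membrane anchor Sdhd to 157 for the iron-sulfur subunit Sdhb. In complex III the smallest subunit Uqcr11 stood at 621 FPKM and the assembly factor Uqcc1 at 21.8, and in complex V the coupling factor Atp5s stood at 4.03. Atp5if1, the inhibitor of ATP hydrolysis by complex V, reached 391.9 to 630 FPKM in single libraries.

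**Figure D1:**
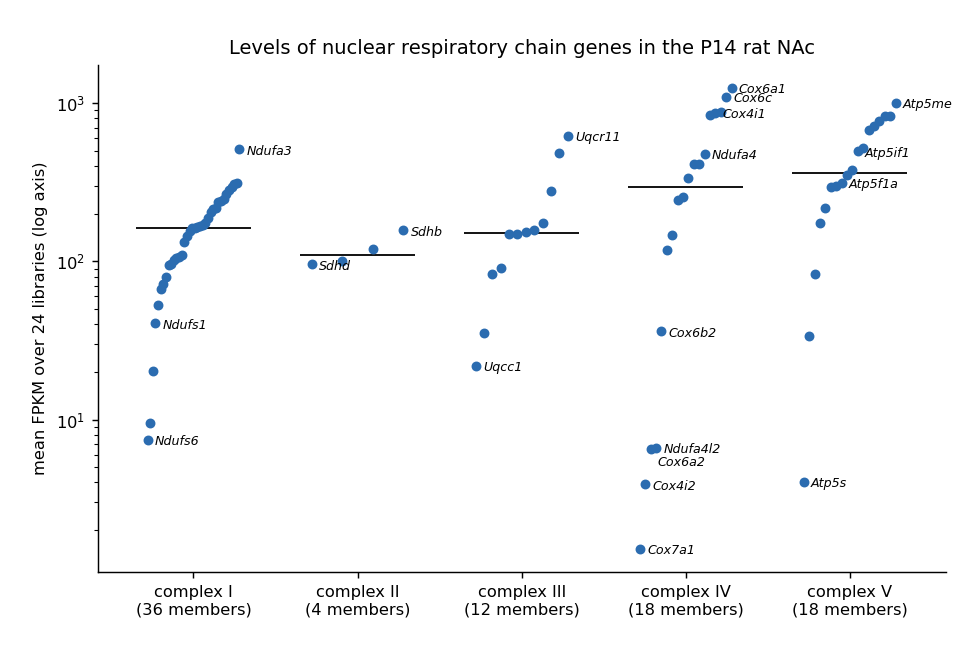
Mean FPKM over 24 libraries on a log axis for each of the 88 members (points), grouped by complex, with the median of the complex as a line. Most members lie above 100 FPKM, and a small tail of alternative isoforms and single subunits, down to Cox7a1 at 1.52, lies far below.

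Transcripts of complex IV were mostly those of its common isoforms in every library. Cox4i2, the oxygen-responsive form of subunit 4 known from lung, was at 0.458% ± 0.174 (SD, n = 24) of the level of Cox4i1. Cox6a2, the muscle form of subunit 6A that is also known from fast-spiking interneurons, was at 0.526% ± 0.203 of Cox6a1. Cox7a1, the muscle form of subunit 7A, was at 0.452% ± 0.114 of the row named Cox7a2l2, whose description in the files is that of Cox7a2. Ndufa4l2, a paralog of the complex IV subunit Ndufa4 that is known as a hypoxia-responsive gene, was at 1.42% ± 0.334 of Ndufa4. Cox6b2, the testis form of subunit 6B, was the exception, at 14.8% ± 4.00 of the more abundant Cox6b1 row, with single libraries between 9.22% and 26.9%. That row (ENSRNOG00000024309) is described in the files as a uroplakin. Against the other Cox6b1 row the share was 31.3% ± 9.84 (SD, n = 24), and against the sum of both it was 9.99% ± 2.77.

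Group means of these shares were as follows. For Cox4i2 the mean share was lowest in F1 IUO, 0.338% ± 0.138 (SD, n = 4), and highest in F1 SAL, 0.600% ± 0.281, and the single libraries of these groups overlapped. Ndufa4l2 was at 1.09% ± 0.172 of Ndufa4 in F1 PNO and at 1.73% ± 0.459 in F2 SAL. Cox7a1 was at 0.607% ± 0.102 of its partner in F1 PNO and at 0.380% ± 0.0426 in F1 IUO, and there the libraries did not overlap. No test was run on these shares. Levels of the muscle markers summed to 12.9 to 29.7 FPKM over all libraries and those of the pericyte markers to 58.6 to 82.1. Over the 24 libraries, which share the scaling by library, Cox7a1 correlated with the pericyte markers at r = -0.479 (rho = -0.481), and r was 0.0185 once the group means were removed. With the endothelium markers, a list of low level, it was r = -0.508 (rho = -0.310), and -0.638 with group means removed. With the striatal projection neuron markers it was r = -0.426, and -0.116 with group means removed.

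**Figure D2:**
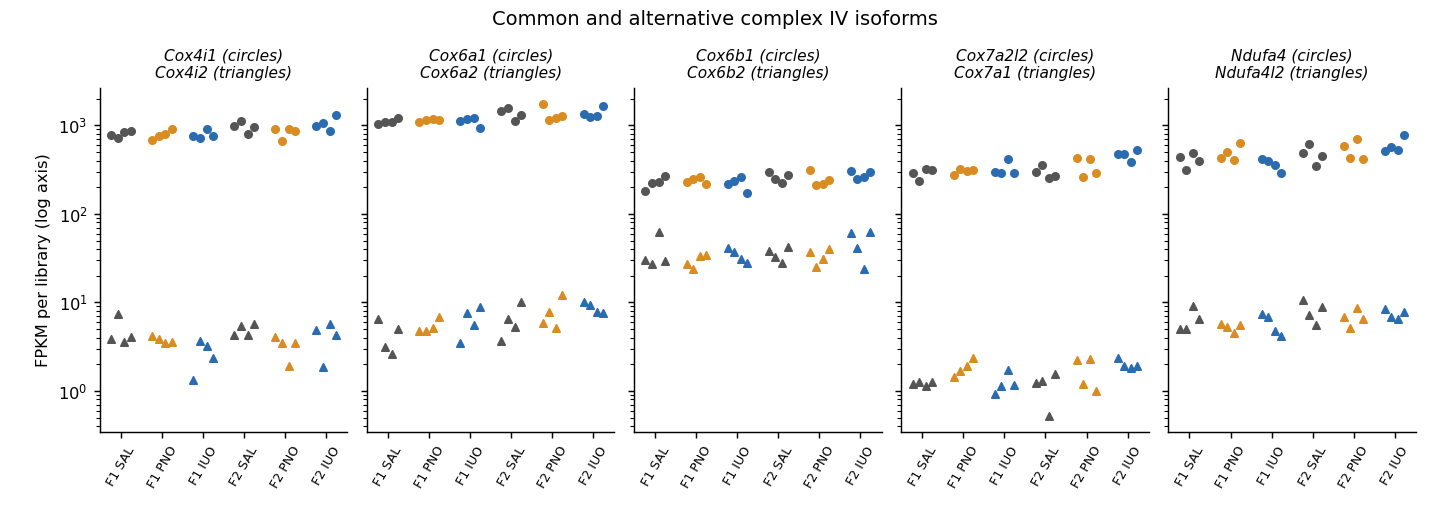
FPKM in each of the 24 libraries on a log axis for the common isoform (circles) and the alternative isoform (triangles) of 5 complex IV subunits, by group (gray SAL, orange PNO, blue IUO). The triangles lie far under the circles in every group, and the gap is smallest for Cox6b2.

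Symbols that occur on more than 1 row were read with caution, since reads of near-identical copies could be split between the rows. Uqcrb, Cox6b1 and Ndufv3 each had 2 rows. The Uqcrb rows ENSRNOG00000024967 and ENSRNOG00000032204 had means of 174 and 153 FPKM, and their levels correlated at only r = 0.515 (rho = 0.345) over the 24 libraries. The Cox6b1 rows ENSRNOG00000024309 and ENSRNOG00000034161 had means of 245 and 117 FPKM (r = 0.635, rho = 0.618). The Ndufv3 rows ENSRNOG00000001182 and ENSRNOG00000027593 had means of 52.9 and 9.48 FPKM (r = 0.619, rho = 0.638). The row named Atp5f1c is described as a subunit of a transcription factor, so its 33.6 FPKM may not be that of the ATP synthase subunit.

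Most members went up and down together from library to library. The correlation of a member with the mean of the other 87 on the log2(FPKM + 0.1) scale had a median of 0.710 over the 24 libraries, 68 of the 88 were above 0.5 and 84 were above 0. These values share the scaling of each library and are given as a description. Ndufv2, a catalytic subunit of complex I, was most like the rest (r = 0.917, rho = 0.924), followed by Ndufa2 (r = 0.908), Ndufa7 (r = 0.900) and Ndufb3 (r = 0.897), all accessory subunits of complex I. With the group means removed, the r of Ndufv2 was 0.903, so that the likeness also held among libraries of the same group.

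A small set of members went the other way. Uqcrc2, a core protein of complex III, had r = -0.562 (rho = -0.524) with the rest. Atp5f1a, the alpha subunit of the F1 part of ATP synthase, had r = -0.404, Ndufs1 had r = -0.309 and Sdha, the flavoprotein of complex II, had r = -0.211. Members with the same roles went with the rest, such as the core protein Uqcrc1 (r = 0.598) and Atp5f1b of the F1 part (r = 0.557). The 12 catalytic subunits, which carry the redox centers of complexes I, II and III or form the catalytic head of complex V, had a median r of 0.518 and the other 76 members a median of 0.722. By complex the median r was highest in complex I, 0.761, and lowest in complex II, 0.360.

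Both patterns could be read in single libraries. The members shown were picked by their correlation over these same 24 libraries, so the values illustrate it and are no separate support. In F2 IUO, Uqcrc2 was at 79.5, 86.4, 75.9 and 63.6 FPKM in replicates 1 to 4, while Ndufv2 was at 171, 178, 173 and 231. In F2 PNO, Uqcrc2 was at 66.6, 85.6, 81.4 and 92.4 FPKM and Ndufv2 at 233, 154, 187 and 167. The library with the most Ndufv2 held the least Uqcrc2 in both groups. The geometric mean of the 84 other members stood 1.02-fold above that of the 4 negatively correlated members in F1 IUO replicate 4 and 2.58-fold above it in F2 IUO replicate 4, the lowest and the highest of all 24 libraries.

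The 4 promoters of the members that ran against the rest and those of the 2 most like the rest are shown to compare their start regions. Each line gives the 120 bases before the annotated gene start in RefSeq (rat build GRCr8), in the direction of the gene. Capitals mark the NRF1 motif (GCGC, any base, TGCGC) and the letters CCGGAAG (ETS family) and TATAAA on either strand.
Uqcrc2, chr1:184599120-184599239, plus strand: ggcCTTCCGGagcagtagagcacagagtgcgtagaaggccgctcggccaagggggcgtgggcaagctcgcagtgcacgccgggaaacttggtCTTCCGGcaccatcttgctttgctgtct
Atp5f1a, chr18:73567417-73567536, plus strand: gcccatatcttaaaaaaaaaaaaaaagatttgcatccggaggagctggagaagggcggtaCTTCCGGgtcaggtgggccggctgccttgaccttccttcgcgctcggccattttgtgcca
Ndufs1, chr9:72073606-72073725, minus strand: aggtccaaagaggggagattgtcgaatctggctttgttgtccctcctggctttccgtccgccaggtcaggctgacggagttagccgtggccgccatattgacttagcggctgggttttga
Sdha, chr1:30764433-30764552, plus strand: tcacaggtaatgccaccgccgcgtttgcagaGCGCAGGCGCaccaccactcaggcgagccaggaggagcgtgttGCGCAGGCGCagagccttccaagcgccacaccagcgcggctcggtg
Ndufv2, chr9:113157521-113157640, minus strand: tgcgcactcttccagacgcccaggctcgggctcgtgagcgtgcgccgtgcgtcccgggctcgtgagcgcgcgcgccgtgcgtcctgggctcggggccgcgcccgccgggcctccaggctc
Ndufa2, chr18:28631885-28632004, minus strand: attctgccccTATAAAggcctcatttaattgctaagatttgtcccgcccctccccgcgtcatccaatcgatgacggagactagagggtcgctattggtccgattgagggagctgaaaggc
Uqcrc2 held 2 matches to the ETS letters, Atp5f1a held 1, and Sdha held 2 matches to the NRF1 letters. Ndufs1 and Ndufv2 had no match in the bases shown, and Ndufa2 had a TATAAA match. Over the longer window described next, Ndufs1 and Ndufa2 also held the ETS letters, outside the bases shown. Ndufv2 held no NRF1, ETS or TATAAA letters there either.

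Motif matches were also counted over the whole RefSeq window of 300 bases (250 before and 50 after the start), with no test run. The share of members with a match was above that of all genes for the NRF1, ETS and YY1 letters and below it for TATAAA. A window was found for 76 of the 85 symbols, 2 of them through an older symbol. Among those not matched were the windows of Ndufb9, Ndufa8, Uqcr11, Uqcrb, Cox6a1, Cox6c, Cox4i2 and Atp5pd. The NRF1 letters were in 15 of the 76 (19.7%) against 4.82% of 27457 genes, and the ETS letters in 21 (27.6%) against 9.63%. The YY1 letters AAGATGGC were in 17 (22.4%) against 3.62%. NRF1 or ETS letters were in 35 windows (46.1%) against 13.5% of all genes, and only 1 window held both. The letters GGGCGG were in 42.1% against 36.002%, CCAAT in 32.9% against 39.6% and TATAAA in 9.21% against 15.3%. The median window had a GC content of 56.2% and 20 CpG, against 52.3% and 7 for all genes. The NRF1 and ETS letters themselves contain CpG, and all genes were compared without matching for CpG or expression. These are matches of letters, and no binding was measured.

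The mean level of the 88 members summarised each library. It averaged 7.08 ± 0.06 (SD, n = 4) on the log2(FPKM + 0.1) scale in F1 SAL, 7.22 ± 0.08 in F1 PNO and 7.05 ± 0.12 in F1 IUO. In F2 the spread was wider, with 7.24 ± 0.18 in SAL, 7.26 ± 0.21 in PNO and 7.40 ± 0.15 in IUO. The lowest library was F1 IUO replicate 1 at 6.88 and the highest F2 IUO replicate 4 at 7.61. F2 PNO ran from 7.07 to 7.51 and F2 SAL from 6.98 to 7.41, so that both overlapped every F1 group, whereas all F2 IUO libraries (7.28 to 7.61) lay above all F1 IUO libraries (6.88 to 7.15).

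**Figure D3:**
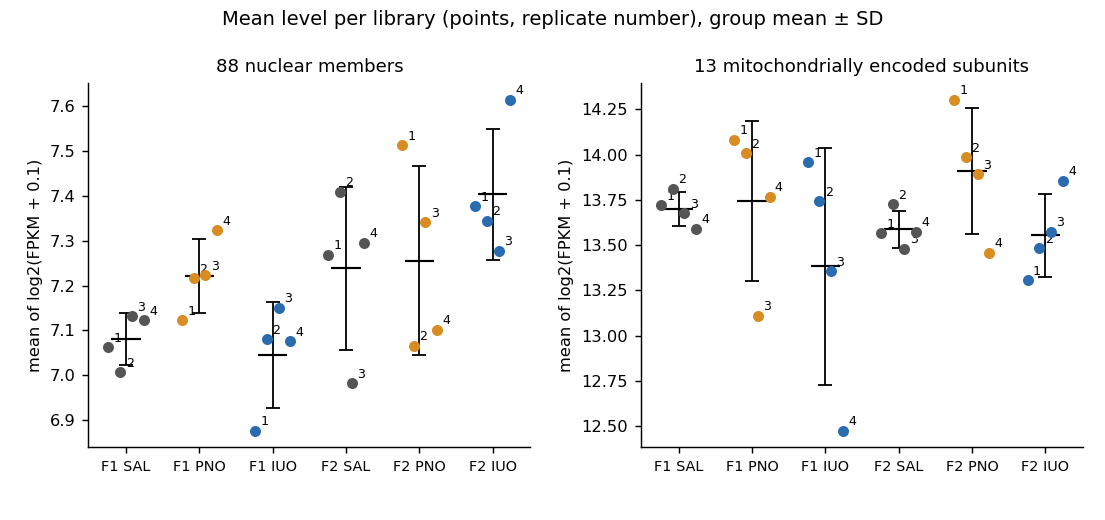
Mean of log2(FPKM + 0.1) per library, numbered by replicate, over the 88 nuclear members (left) and the 13 mitochondrially encoded subunits (right), with the group mean and SD. Nuclear members are highest in F2 IUO replicate 4 at 7.61 and lowest in F1 IUO replicate 1 at 6.88, and the mitochondrially encoded subunits do not rank the libraries in the same order.

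On the FPKM scale the nuclear members did not track the mitochondrially encoded subunits of the same complexes. Over the 24 libraries the levels of the 2 sets correlated at r = 0.157 (rho = 0.0252). Both sets share the scaling by library, and mitochondrially encoded subunits took 41.8% of the sum in F2 PNO replicate 1 and 17.04% in F1 IUO replicate 4. Of the sum without mitochondrially encoded genes, the nuclear members made up 7.80% and 4.92% there. They made up 7.59% in F2 IUO replicate 4, where the mitochondrial share was 33.7%. The relation on that scale was not tested. The nuclear members followed the mitochondrial ribosomal proteins instead (r = 0.896, rho = 0.880, and 0.879 with group means removed), and also the cytosolic ribosomal proteins (r = 0.742, rho = 0.741). They ran against the median level of all rows with a mean of at least 1 FPKM (r = -0.641, rho = -0.473) and against 15 regulators of mitochondrial biogenesis (r = -0.683, rho = -0.586). Among cell markers the strongest relation was with astrocytes (r = -0.628, rho = -0.562), and with thalamus markers it was r = -0.197. With group means removed these were -0.454 and -0.347, and the strongest was then with endothelium markers, -0.576 (r = -0.433, rho = -0.552 before). Set against the mean of the members outside it, each of complexes I, III, IV and V had r = 0.944 to 0.969, and complex II, with 4 members, had r = 0.314.

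**Figure D4:**
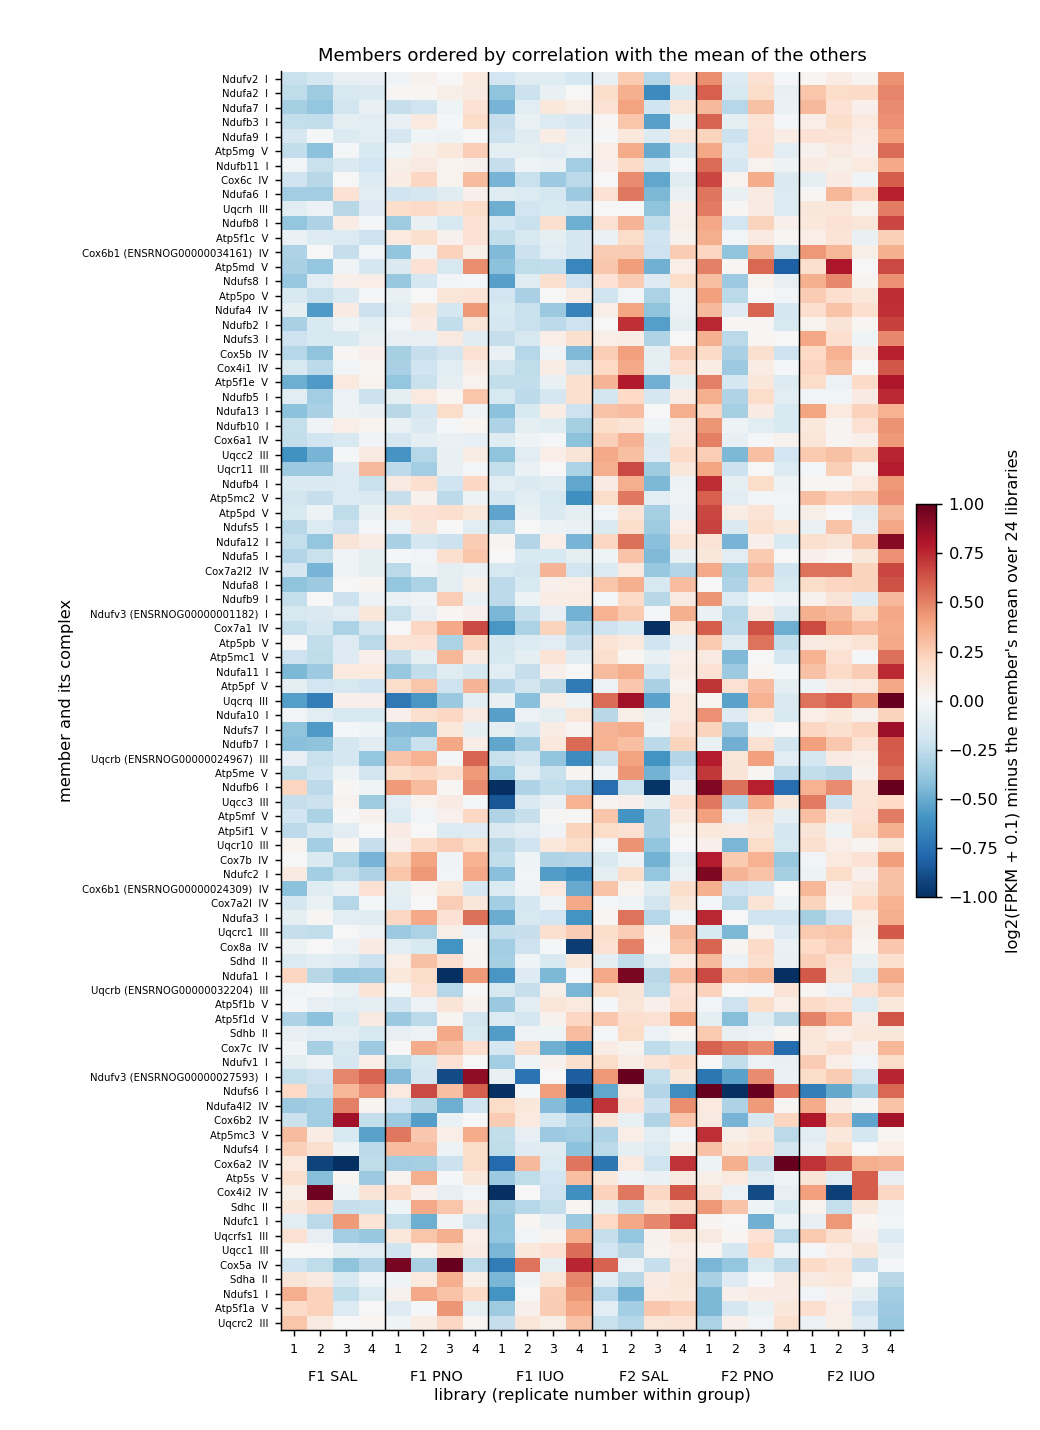
Each row is a member with its complex (1 member is not shown), ordered by its correlation with the mean of the others (highest at the top), each column a library by group and replicate, and the color is log2(FPKM + 0.1) minus the mean of the member over 24 libraries, held to the range from -1 to 1. F2 PNO replicate 1 and F2 IUO replicate 4 are red over most rows and blue over the lowest 4 rows, Sdha, Ndufs1, Atp5f1a and Uqcrc2.

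A few members varied in a way of their own. The coefficient of variation over 24 libraries had a median of 18.6% and was highest for Ndufs6, 45.5%. Cox5a, a matrix-facing subunit of complex IV, had 464.7 and 509.7 FPKM in F1 PNO replicates 1 and 3 but 192 and 200.3 in replicates 2 and 4. In F1 IUO it had 148, 351, 227 and 409 FPKM, and in F1 SAL it stayed between 183 and 210. These Cox5a differences lay between libraries of the same group.

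Each comparison between groups was fitted over all genes with limma, and no member had an adjusted p under 0.05 in any of 9 comparisons. The smallest adjusted p of a member was 0.105. The counts that follow are therefore of unadjusted p under 0.05, read against the share of all genes tested that passed in the same direction. Counts from fits with a covariate, a rescaling or a library left out are given without that share. They cannot be set against the shares of the main fits. Comparisons that share a group share its libraries and are not independent.

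In F1, few of these genes separated IUO from SAL pups, and no more often than genes at large. Of the 88 members, 1 was lower in IUO (1.14%) and 0 were higher, against 1.97% of the 17380 genes tested lower and 1.93% higher. No gene of any kind passed the adjusted threshold (0%). The member was Cox4i2, at 1.33, 3.68, 3.18 and 2.37 FPKM in IUO and at 3.83, 7.32, 3.57 and 4.03 in SAL. The groups overlapped, and its log2 fold change was -0.83 ± 0.34 (SE), with an adjusted p of 0.999. The median log2 fold change of the members was -0.01, against 0.01 over all genes. Without F1 IUO replicate 3 the count was 7 lower, and without F1 IUO replicate 1 it was 4 higher and 1 lower.

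In F1, PNO pups had higher levels than SAL pups of members from all 5 complexes, without passing the adjusted test. Unadjusted, 23 of 88 members were higher (26.1%) and 0 lower, where 6.11% of 17494 genes were higher and 7.83% lower. They were 9 of 36 in complex I, 1 of 4 in complex II, 4 of 12 in complex III, 4 of 18 in complex IV and 5 of 18 in complex V. No gene passed after adjustment (0%). Their median log2 fold change was 0.14 against -0.05 over all genes, and 67 of the 88 members were higher against 43.6% of all genes.

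The Uqcrb row ENSRNOG00000024967, a subunit next to the ubiquinone site of complex III, was at 205, 214, 167 and 252 FPKM in PNO and at 159, 144, 149 and 128 in SAL. Every PNO library lay above every SAL library, with a log2 fold change of 0.52 ± 0.13 (SE) and an adjusted p of 0.231. The other Uqcrb row was at 149 ± 18.3 (SD, n = 4) in PNO and 153 ± 9.54 in SAL. Atp5me was at 1113, 1136, 1101 and 1323 FPKM in PNO and at 826, 856, 949.7 and 868 in SAL, also without overlap. Its log2 fold change was 0.42 ± 0.11 and its adjusted p 0.233. Ndufa3 had 575, 648, 549 and 729 FPKM in PNO and 467, 500.4, 461 and 458 in SAL.

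In complexes IV and II the differences were of the same order. Cox7c, a small membrane subunit of complex IV, was at 467 ± 51.7 FPKM (SD, n = 4) in PNO and 347 ± 38.1 in SAL, and Cox7a1 was at 1.85 ± 0.380 and 1.22 ± 0.0594. Sdhd was at 99.8, 116, 107 and 96.8 FPKM in PNO and at 86.5, 87.7, 86.9 and 82.0 in SAL. Among the 12 catalytic subunits, 1 (Uqcrfs1, the Rieske iron-sulfur protein, log2 fold change 0.37 ± 0.13) had an unadjusted p under 0.05, and Cox4i1 stood at 784 ± 92.6 FPKM in PNO and 801 ± 69.2 in SAL. The member with the highest fold, Cox5a at 0.65 ± 0.31, rested on the high values of PNO replicates 1 and 3.

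The same libraries differed in dissection. Of 8 thalamus markers, 6 had an unadjusted p under 0.05 for a higher level in PNO, with a median log2 fold change of 1.44, and their summed level was 130 to 330 FPKM in PNO and 22.8 to 165 in SAL. None of the 8 was at 0 throughout either group. With the thalamus level as a covariate, 6 members were higher and 0 lower. The count was 9 when all 24 libraries shared the fit, and 15 to 27 when single libraries were left out, lowest without F1 SAL replicate 2 (14 higher and 1 lower) and without F1 PNO replicate 2 (15 higher).

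F1 IUO pups had lower levels than F1 PNO pups of a similar number of members. In this comparison 19 of 88 (21.6%) were lower and 0 higher, where 6.41% of 17306 genes were lower and 10.1% higher, and 0.133% passed the adjusted threshold. Complex I had 6 of 36 lower, complex II 1 of 4, complex III 2 of 12, complex IV 4 of 18 and complex V 6 of 18. Over the members the median log2 fold change was -0.16, against 0.03 over all genes. The PNO libraries are those of the comparison with SAL, so that the 2 counts are not independent.

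Ndufa3 gave the smallest adjusted p of any member here, 0.105, and in the whole set of comparisons. It was at 353, 445, 436 and 329 FPKM in IUO against 575, 648, 549 and 729 in PNO, with no overlap and a log2 fold change of -0.68 ± 0.14 (SE). Atp5mc3, a gene for the rotating c ring of ATP synthase, was at 429, 480.5, 396 and 401 FPKM in IUO and at 734, 615, 534 and 658 in PNO (-0.57 ± 0.13, adjusted p = 0.112). In F1 SAL it ranged from 350.3 to 634 FPKM, across both groups. Cox6c averaged 856 ± 62.8 FPKM (SD, n = 4) and 1201 ± 109, and the membrane anchor Sdhc was at 92.1, 96.5, 99.9 and 119 FPKM in IUO and at 114, 153, 143 and 125 in PNO. None of the 12 catalytic subunits had an unadjusted p under 0.05, and the median log2 fold change was -0.04 over these 12 and -0.18 over the other 76.

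Of the thalamus markers, 5 of 8 were lower in IUO than in PNO at an unadjusted p under 0.05, and 7 of 10 markers of striatal projection neurons were higher. With the thalamus level as a covariate 9 members were lower and 1 higher, and the median log2 fold change was -0.06. After upper-quartile rescaling 34 were lower and 0 higher.

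**Figure D5:**
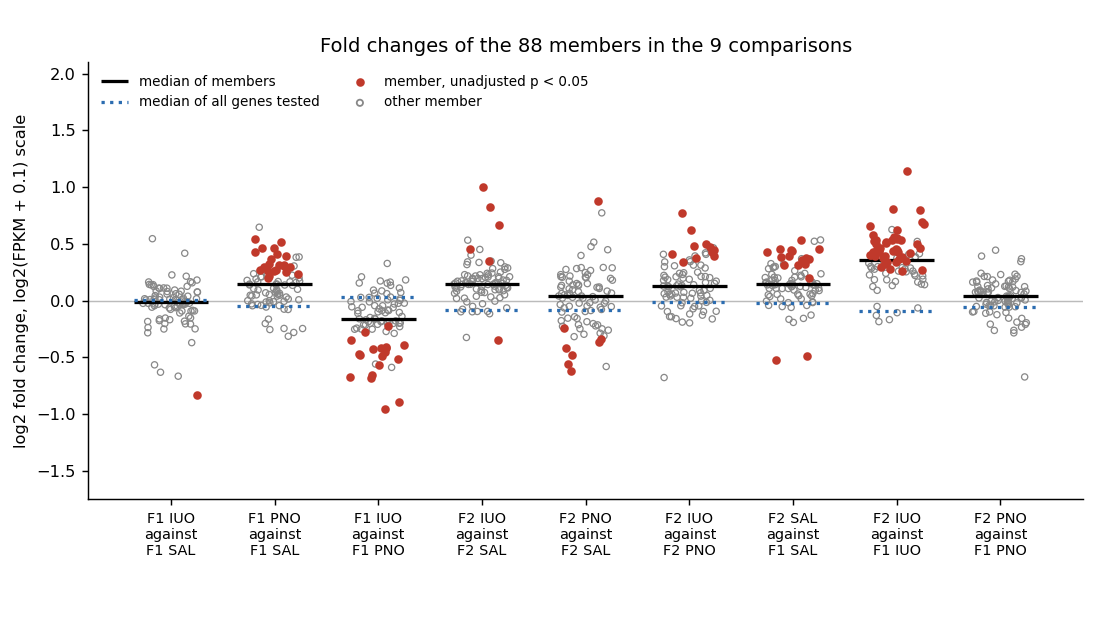
Log2 fold change of each of the 88 members in the 9 comparisons, first group against second, on the log2(FPKM + 0.1) scale. Filled points have an unadjusted p under 0.05, the solid line is the median of the members and the dotted line that of all genes tested. The members stand highest against all genes in F2 IUO against F1 IUO, with a median of 0.36 against -0.09.

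In F2, the members of IUO pups differed from those of SAL pups about as often as genes at large. Of 88, 5 were higher (5.68%) and 1 was lower (1.14%), against 3.52% of 17097 genes higher and 4.97% lower, and no gene passed after adjustment (0%). Their median log2 fold change was 0.15 against -0.08 over all genes, and 75 of the 88 members were higher against 39.6% of all genes. Cox7a2l2 was at 478, 478, 383 and 523 FPKM in IUO and at 299.7, 353, 253 and 269 in SAL. The groups did not overlap, with a log2 fold change of 0.67 ± 0.14 (SE) and an adjusted p of 0.272. Ndufb6, an accessory subunit of the membrane arm of complex I, was at 126, 137, 108 and 198 FPKM in IUO and at 58.1, 84.5, 49.8 and 94.1 in SAL (0.999 ± 0.238, adjusted p = 0.391). Its F1 SAL values, 82.2 to 114 FPKM, overlapped both F2 groups.

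The other members higher in F2 IUO were Atp5po, Cox7b and Cox7a1. Atp5po, which joins the stalk of ATP synthase to its head, averaged 469.5 ± 102 FPKM (SD, n = 4) in the IUO group and 337 ± 31.4 in SAL, and Cox7a1 was at 1.99 ± 0.232 and 1.15 ± 0.444. Ndufc1, an accessory subunit of complex I, was the lower member, at 21.4 ± 3.78 and 27.1 ± 3.56. Of the striatal projection neuron markers, 3 of 10 were lower in F2 IUO at an unadjusted p under 0.05, and none of the thalamus markers was. With the thalamus level as a covariate 21 members were higher and 1 lower. Without F2 SAL replicate 2 the count was 13 higher, and without F2 SAL replicate 3 it was 3 higher.

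F2 PNO pups had lower levels than F2 SAL pups of 7 members (7.95%) and a higher level of 1 (1.14%), against 6.83% of 17367 genes lower and 3.97% higher, so that the count was near the background. After adjustment 0.00576% of genes passed. Atp5f1d, a subunit of the rotating stalk of ATP synthase, was at 161, 128, 158 and 142 FPKM in PNO and at 208, 193, 191 and 226 in SAL, without overlap (-0.48 ± 0.11, adjusted p = 0.345). Ndufc1 was at 20.4, 19.9, 14.3 and 19.4 FPKM in PNO and at 22.9, 26.2, 27.9 and 31.5 in SAL. Also lower were the complex III core protein Uqcrc1, Ndufv3 (ENSRNOG00000001182), the flavoprotein Ndufv1, Cox4i2 and Cox5a, and Ndufb6 was higher. Ndufv1 was at 95.1 ± 6.93 FPKM (SD, n = 4) and 112 ± 4.25, and Cox4i2 at 3.24 ± 0.908 and 4.91 ± 0.729. The median log2 fold change of the members was 0.04, on the other side of zero from most of these. Without F2 PNO replicate 4 the count was 6 higher and 6 lower.

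F2 IUO against F2 PNO gave 11 higher members (12.5%) and 0 lower, against 4.59% of 17090 genes higher and 2.48% lower, with no gene past the adjusted threshold (0%). Atp5f1d was at 243, 219, 183 and 267 FPKM in IUO against 161, 128, 158 and 142 in PNO (0.62 ± 0.14, adjusted p = 0.425). Ndufv3 (ENSRNOG00000001182) was at 64.8 ± 4.03 FPKM (SD, n = 4) and 48.8 ± 5.36, Uqcrq at 232 ± 61.8 and 136 ± 34.3 and Uqcrc1 at 194 ± 32.4 and 139 ± 18.3. In these 4 members no F2 IUO library fell to the highest F2 PNO library. The median log2 fold change of the members was 0.13 against -0.01 over all genes. This direction depended on the scaling: the median was -0.04 after upper-quartile rescaling, with 2 members higher, and 0.02 after rescaling to the sum without mitochondrially encoded genes, with 5 higher and 49 of 88 above 0 in place of 68. Without F2 PNO replicate 1 the count was 20.

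Between generations, the IUO groups gave the highest count of the 9 comparisons. F1 and F2 pups came from successive breedings, so generation cannot be told apart from breeding cohort or from any batch that follows it. In F2 IUO 46 of the 88 members (52.3%) were higher than in F1 IUO and 0 were lower, while 5.35% of 16916 genes were higher and 9.65% lower. No gene passed the adjusted threshold (0%), and the smallest adjusted p of a member was 0.221. The median log2 fold change was 0.36 against -0.09 over all genes, and 82 of the 88 members were higher, against 41.4% of all genes. By complex, 23 of 36 members of complex I, 0 of 4 of complex II, 4 of 12 of complex III, 11 of 18 of complex IV and 8 of 18 of complex V had an unadjusted p under 0.05.

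Ndufv3 (ENSRNOG00000001182) was at 66.7, 65.3, 59.1 and 68.3 FPKM in F2 IUO and at 38.0, 44.2, 49.3 and 37.6 in F1 IUO, with a log2 fold change of 0.62 ± 0.12 (SE). Uqcrq, a small subunit of complex III, was at 205, 213, 188 and 324 FPKM and at 134, 105, 147 and 136. In both genes every F2 library exceeded every F1 library. Cox6b1 (ENSRNOG00000034161) averaged 142 ± 15.6 FPKM (SD, n = 4) and 98.3 ± 9.37, Atp5md at 393 ± 104 and 221 ± 28.3 and Ndufb6 at 142 ± 39.2 and 68.1 ± 26.1, the last with the largest log2 fold change of the members, 1.14 ± 0.33. All 5 of these had an adjusted p between 0.221 and 0.236.

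Among the 12 catalytic subunits 3 had an unadjusted p under 0.05 (Ndufs7, Ndufs8 and Ndufv2) and the median log2 fold change was 0.15, while among the other 76 members 43 had one and the median was 0.38. Mean FPKM of Cox4i1 was 1061 ± 194 (SD, n = 4) in F2 IUO and 785 ± 82.0 in F1 IUO, and Cox8a at 982 ± 74.3 and 683 ± 172. The 4 members that run against the rest had slightly negative log2 fold changes, -0.18 ± 0.14 (SE) for Uqcrc2, -0.17 ± 0.18 for Atp5f1a, -0.13 ± 0.21 for Ndufs1 and -0.05 ± 0.19 for Sdha. These 4 were picked for a negative correlation with the rest over libraries that include these. Their direction where the others rise therefore follows in part from that choice.

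Under every scaling tried the median of the members stayed above 0 and above that of all genes. After rescaling to the sum without mitochondrially encoded genes 22 members were higher and 1 lower, with a median of 0.25 against -0.20 over all genes. Leaving out single libraries gave counts of 32 to 49, with 32 without F1 IUO replicate 2 and 32 without F2 IUO replicate 4. Of the striatal projection neuron markers 5 of 10 were lower in F2 IUO than in F1 IUO at an unadjusted p under 0.05, and their summed level was 418 to 1018 FPKM in F2 IUO and 849 to 1196 in F1 IUO. Astrocyte markers summed to 355 to 541 FPKM in F2 IUO and 430 to 555 in F1 IUO, with 1 of 6 lower, and microglia markers to 90.3 to 140.3 and 117 to 143, with 1 of 6 lower. Pericyte markers summed to 58.6 to 76.4 and 67.5 to 80.5 FPKM, with 2 of 6 lower and 2 higher, and endothelium markers to 3.77 to 5.86 and 5.42 to 7.47, with 1 of 2 tested lower and Cldn5 at 0 in both groups. The part of any of these cells in the result was not tested.

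The saline groups gave a count in the same direction between generations. Whether it differed from that of the IUO groups is given by the interaction test that follows. In F2 SAL 15 of 88 members were higher than in F1 SAL (17%) and 2 lower (2.27%). Of 17497 genes 3.78% were higher and 4.69% lower, and 0.0343% passed the adjusted threshold. By direction alone, 74 of the 88 members were higher, against 47.0% of all genes. The median log2 fold change was 0.13 over the 12 catalytic subunits and 0.15 over the other 76 members. Ndufa13, an accessory subunit of complex I, was at 371, 378, 306 and 391.7 FPKM in F2 SAL and at 230, 243, 295 and 289 in F1 SAL, without overlap (0.45 ± 0.12, adjusted p = 0.569). Atp5f1d was at 204.5 ± 16.1 FPKM (SD, n = 4) and 152 ± 23.4, Uqcrc1 at 178 ± 15.5 and 143 ± 12.9 and Ndufs7 at 108 ± 14.4 and 79.0 ± 14.4. The 2 lower members were Ndufs6 and Ndufb6. Without F2 SAL replicate 3, in which the member level was lowest of its group, 34 were higher and 1 lower. Without any 1 of F1 SAL replicates 1 and 2 and F2 SAL replicates 1, 2 and 4 the count fell to between 6 and 10 in all. With the thalamus level as a covariate 26 were higher and 4 lower, and after rescaling to the sum without mitochondrially encoded genes 6 were higher and 2 lower.

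Between F1 PNO and F2 PNO no member had an unadjusted p under 0.05, while 2.13% of 17370 genes were higher and 2.63% lower and 0.0288% passed after adjustment. The median log2 fold change of the members was 0.04 against -0.06 over all genes. The largest change was that of Cox5a, -0.67 ± 0.32 (SE), which was high in 2 of the 4 F1 PNO libraries.

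Whether treatment differences differed between F1 and F2 was tested directly, as an interaction of treatment and generation. No member passed after adjustment, and neither did any other gene (0%). For IUO against SAL, 4 members had an unadjusted p under 0.05 for a higher value in F2 (4.55%) and 0 for a lower one, against 1.62% and 3.53% of 18437 genes. Ndufb6 led with a difference of 1.63 ± 0.43 (SE) on the log2 scale and an adjusted p of 0.924: its mean was 68.1 FPKM in IUO against 97.9 in SAL in F1, and 142 against 71.6 in F2. Of the 88 differences 73 were above 0, against 41.4% of all genes. For PNO against SAL, 0 members were higher and 4 lower (4.55%), against 1.61% and 2.45% of 18608 genes, and 17 of the 88 differences were above 0, against 45.3% of all genes. The 4 lower members were Atp5f1d, Cox5a, Ndufv3 (ENSRNOG00000001182) and Ndufa13. For IUO against PNO, 7 members were higher (7.95%) and 0 lower, against 3.04% and 2.72% of 18405 genes, and 86 of the 88 differences were above 0, against 46.0% of all genes. Ndufv3 (ENSRNOG00000001182) had the smallest adjusted p, 0.618, with a difference of 0.67 ± 0.16. That count was 35 without F2 PNO replicate 1 and 1 without F2 PNO replicate 4.

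Other mitochondrial genes were read from lists for comparison, by counts of unadjusted p under 0.05. The 78 mitochondrial ribosomal proteins, which translate the mitochondrially encoded subunits, had 21 higher and 1 lower in F1 PNO against F1 SAL, 0 higher and 20 lower in F1 IUO against F1 PNO, and 28 higher and 1 lower in F2 IUO against F1 IUO. The 42 assembly factors, which help to build the complexes, had 6 higher and 1 lower, 0 higher and 7 lower, and 6 higher and 0 lower in the same order. The 13 enzymes of the citric acid cycle, which supplies the NADH and succinate, had 5 higher, 7 lower and 3 higher, with none in the opposite direction. Of all genes tested, 6.11% were higher and 7.83% lower in the first of these comparisons. The shares were 10.1% and 6.41% in the second, and 5.35% and 9.65% in the third. All of these lists shared the libraries of the comparisons above, and no gene of any list had an adjusted p under 0.05.

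Among the 13 mitochondrially encoded subunits none had an unadjusted p under 0.05 in these 3 comparisons, and their median log2 fold changes were 0.08, -0.31 and 0.12. They varied widely within groups: in F1 IUO their share of the summed FPKM ran from 17.04% in replicate 4 to 39.0% in replicate 1. Of 16 glycolytic enzymes, 1 was higher in F1 PNO against F1 SAL and 1 in F2 IUO against F1 IUO. Of the 15 regulators of mitochondrial biogenesis, 3 were lower and 0 higher in F2 IUO against F1 IUO, and the 79 cytosolic ribosomal proteins had 26 higher and 1 lower there. In that comparison 5.35% of all genes tested were higher and 9.65% lower.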

How the data were processed

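NAc RNA of 24 P14 rat pups from separate litters had been sequenced by the study. For every gene and library the authors deposited an FPKM, estimated with StringTie on a transcriptome merged over samples. The submitters' processing notes also name HISAT2, SAMtools and edgeR, with versions and genome build not given in the sources used here. Counts were not analysed here, so limma took the place of the count test, and no counting interval is given.

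Groups were compared with limma 3.58.1 (R 4.3.3; linear fit, then empirical Bayes with a trend, two-sided) after taking log2(FPKM + 0.1). Genes entered when 4 or more of the compared libraries had at least 0.1 FPKM, and p values were adjusted over all of these by the Benjamini-Hochberg method. Group values are means ± SD, and fold changes understate those of low genes. The members, lists, named genes and tests were chosen with earlier results of these data known. Genes named were the complex IV isoform families, the catalytic subunits, the highest and lowest member of each complex, the member with the smallest unadjusted p per complex and comparison, and the 2 with the largest fold change per comparison. A few others, among them the members most and least like the rest, were chosen after their values were seen. One catalytic subunit is counted in the summaries and its own values are not reported here. Correlations over the libraries are descriptions. Promoter windows are from RefSeq (GRCr8). The fit was tested on simulated data. Alternatives were a pseudocount of 1, other filters on low values, upper-quartile and median-ratio rescaling, a joint fit of 24 libraries, blocks by replicate number, a thalamus covariate and leaving out each library. Rescaling to the sum without mitochondrially encoded genes was added after seeing the data. Python 3.11.15, pandas 2.3.3 and numpy 2.4.6 were used for tables.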

Additional observations from a re-analysis of the deposited data

Results flagged for a closer look

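In groups of 4 libraries, a library was looked at again where its gap to the nearest other, divided by the range of the 4, exceeded the 95% critical value of Dixon's test. Of 330 groups (55 measures in 6 groups) 17 did so, and chance alone gives about 1 in 20, or 16.5, so the number of such groups is near that of chance.

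Libraries of F2 SAL replicate 3 stood low for the mean level of complex IV, 6.78 against 7.16 to 7.24 (gap share 0.834), and for Cox6b1 (ENSRNOG00000034161), 99.6 FPKM against 137 to 138 (0.986). In F1 SAL, Cox4i2 was at 7.32 FPKM in replicate 2 against 3.57 to 4.03 (0.877), Cox6b2 at 62.3 in replicate 3 against 27.2 to 29.9 (0.923) and Ndufa1 at 177 in replicate 1 against 117 to 126 (0.855). In F1 PNO, replicate 3 stood high for Sdhb, 204 FPKM against 140 to 150.4 (0.837), and for Atp5f1a, 422 against 284 to 307 (0.834). Replicate 4 of that group stood high for Atp5me, 1323 FPKM against 1101 to 1136 (0.844).

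In F1 IUO, Ndufb6 was at 29.1 FPKM in replicate 1 against 79.6 to 82.9 (0.939) and Cox7a2l2 at 415 in replicate 3 against 288 to 294 (0.955). In F2 PNO, replicate 1 stood high for Ndufa3, 837 FPKM against 433 to 496 (0.844), and low for Ndufs1, 29.0 against 41.3 to 42.2 (0.931). Replicate 4 stood low for Atp5if1, 434 FPKM against 524 to 531 (0.935), and for Cox7c, 237 against 558 to 607 (0.868), and replicate 3 stood low for Ndufc1, 14.3 against 19.4 to 20.4 (0.838). In F2 IUO, replicate 4 stood high for Ndufs7, 169 FPKM against 104 to 108 (0.945), and for Ndufv2, 231 against 171 to 178 (0.882).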

How the results depend on the processing

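The count of members with an adjusted p under 0.05 was 0 in each of the 9 comparisons and under every alternative run, including leaving out each library, and in the main fits 0 to 46 members had an unadjusted p under 0.05. No named member turned its direction in the comparison that named it under any alternative. Such members were named for a small p or a large fold change in these same data, so a turn was unlikely from the start. The median over all members did turn in F2 IUO against F2 PNO with upper-quartile rescaling, as given above.

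The counts at an unadjusted p under 0.05 moved more. With the stricter filter of 1 FPKM in 4 libraries, F1 IUO against F1 SAL gave 2 in place of 1. With upper-quartile rescaling the counts were 5 for F1 IUO against F1 SAL, 34 for F1 IUO against F1 PNO, 4 for F2 PNO against F2 SAL and 2 for F2 IUO against F2 PNO, and 2 each for the F2 and F1 differences of PNO against SAL and of IUO against PNO; the median log2 fold change became -0.13 and -0.28 in the first 2. With median-ratio rescaling they were 2 for F1 IUO against F1 SAL, 3 for F2 PNO against F2 SAL, 6 for F2 IUO against F2 PNO, and 2 and 3 for the differences of PNO against SAL and of IUO against PNO. With the non-mitochondrial sum they were 4 for F1 IUO against F1 SAL, 5 for F2 IUO against F2 PNO, 8 for F2 SAL against F1 SAL, 23 for F2 IUO against F1 IUO and 2 for the difference of IUO against PNO. With all 24 libraries in one fit they were 3 for F1 IUO against F1 SAL, 9 for F1 PNO against F1 SAL, 2 for F2 PNO against F1 PNO and 11 for the difference of IUO against PNO. With the thalamus covariate they were 2 for F1 IUO against F1 SAL, 6 for F1 PNO against F1 SAL, 10 for F1 IUO against F1 PNO (median -0.06), 22 for F2 IUO against F2 SAL, 30 for F2 SAL against F1 SAL, 2 for F2 PNO against F1 PNO and 12 for the difference of IUO against PNO. The cause of these changes was not tested.

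Same-numbered libraries did not deviate together: in 0 of 9 comparisons did every pair correlate above 0.1, so the numbers were not read as pairs. With them as a replicate block the counts were 4 for F2 PNO against F2 SAL, 9 for F2 SAL against F1 SAL, 2 for F2 PNO against F1 PNO and 4 for the difference of IUO against PNO.

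Leaving out single libraries gave counts of 0 to 7 for F1 IUO against F1 SAL, 15 to 27 for F1 PNO against F1 SAL, 15 to 23 for F1 IUO against F1 PNO, 3 to 13 for F2 IUO against F2 SAL, 4 to 12 for F2 PNO against F2 SAL, 6 to 20 for F2 IUO against F2 PNO, 6 to 35 for F2 SAL against F1 SAL, 32 to 49 for F2 IUO against F1 IUO and 0 to 4 for F2 PNO against F1 PNO. For the differences between generations the ranges were 2 to 13 for IUO against SAL, 2 to 7 for PNO against SAL and 1 to 35 for IUO against PNO. Depth is unknown, and 4 libraries a group limit all counts.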
